A study of Mus musculus with 4 samples.

Results

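The genes described here handle fat arriving at the liver and fat stored in it. They are 10 genes chosen by name, with earlier results of these data known, of 19938 genes measured. Among them are the uptake genes Cd36, Vldlr and Lpl and the droplet coat genes Plin2, Plin4, Plin5 and Cidec. The others are the intracellular carriers Fabp1, Fabp4 and Fabp5. All 10 had a row on the array annotated with exactly 1 gene symbol; Fabp5 had 2 such rows, and the one with the higher mean over the arrays was used. The data are 4 Affymetrix whole-transcript arrays of mouse liver RNA, 1 array per genotype, each of RNA pooled from 3 livers. The mice were 8 weeks old and labelled male. The double-null pool lacked both the growth hormone receptor (GHR) and MDR2, the GHR-null pool lacked GHR only, the MDR2-null pool lacked MDR2 only, and the wild-type control pool carried both. MDR2, encoded by Abcb4, moves phosphatidylcholine into bile, and mice without it develop cholestasis. GHR is the receptor through which liver cells sense growth hormone. The labels give neither the strain nor how the alleles were made, and no treatment is named. Pooling leaves no measure of the variation between animals, so the pairwise differences below describe 4 pools and carry no p-value.

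Fatty acids reach hepatocytes free in plasma or are released from circulating triglyceride by lipoprotein lipase (Lpl), and CD36 at the cell surface helps them enter. The VLDL receptor (Vldlr) binds whole triglyceride-rich particles. Inside the cell, fatty acid-binding proteins carry the fatty acids through the cytosol, and surplus is esterified and kept in lipid droplets, whose surface is coated by perilipins and, where droplets fuse, by CIDE proteins. Healthy adult hepatocytes express little Lpl, Vldlr and Fabp4, whereas Fabp1 is among their most abundant messages. PPAR alpha and PPAR gamma are known regulators of several of these genes.

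The pools were compared with their labels first. Ghr intensity was 935 in the double-null and 1395 in the GHR-null livers, compared with 4485 in MDR2-null and 4944 in wild-type livers. Abcb4 was 689 in the double-null and 663 in the MDR2-null pool, against 1346 in the GHR-null and 1120 in the wild-type pool. Whether the probes lie in the deleted parts is not stated in the labels. The GHR-null pool went against its label in 1 respect: Xist, which is made in female cells, was at 1400 there and at 17, 18 and 16 in the double-null, MDR2-null and wild-type pools. The Y-linked Eif2s3y was 680 in the GHR-null pool and 951, 840 and 899 in the same 3 others. The sum of 12 genes known for higher levels in female liver was 19104 in the GHR-null pool, against 5294, 751 and 918. For 11 genes known for higher levels in male liver the sum was 8383, against 13954, 31004 and 39937. The double-null pool, with Xist at 17, shared the direction of both sums. The largest parts of its female-list sum were Sult1e1 (1845), Abcd2 (1473) and Cyp2b9 (1162). Not every gene of that list followed: Cyp2b13 read 2545 with GHR loss alone but 28 with both losses, and Hao2 1507 but 48. Of 10 genes of the list compared, 8 were lower and 1 higher in double-null than in GHR-null livers. How far the sums reflect female RNA in the pool with Xist was not tested. The double-null against MDR2-null difference shows GHR loss without the pool with Xist. The difference of MDR2-null from wild type shows MDR2 loss without it. Summed intensity of 8 measured hepatocyte markers was 80817 in the double-null, 82017 in the GHR-null, 84233 in the MDR2-null and 89632 in the wild-type pool, so the liver label held in all 4. Median intensity over all rows with 1 symbol was 105, 97, 102 and 94 in the same order. An intensity of 100, the median over these rows and arrays, served as the level below which a value was not taken as shown to be above background.

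The DNA just upstream of 4 genes is shown so that genes with different patterns can be compared: Cd36 and Vldlr, which were higher in the double-null than in the wild-type pool, Fabp1, which was lower, and Plin2, which was nearly level. RefSeq's promoter table for GRCm38.p6 had entries for 7 of the 10 members, with 10 start sites. The 250 bases before each start were searched on both strands for the hexamer AGGTCA, the unit that nuclear receptors such as the PPARs bind, and for TTCNNNGAA, the STAT motif of growth hormone signalling. Capitals mark matches to the hexamer (TGACCT on the other strand), and no match overlapped another. The windows, 5′ to 3′ along each gene, are chr5:17835897-17836146 (minus strand) for Cd36, chr19:27216234-27216483 (plus strand) for the first Vldlr start, chr4:86670060-86670309 (minus strand) for Plin2 and chr6:71199629-71199878 (plus strand) for Fabp1.
Cd36: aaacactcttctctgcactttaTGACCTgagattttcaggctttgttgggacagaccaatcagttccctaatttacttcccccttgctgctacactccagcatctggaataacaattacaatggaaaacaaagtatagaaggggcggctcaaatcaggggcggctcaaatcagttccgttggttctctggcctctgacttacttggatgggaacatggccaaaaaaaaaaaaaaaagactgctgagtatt
Vldlr: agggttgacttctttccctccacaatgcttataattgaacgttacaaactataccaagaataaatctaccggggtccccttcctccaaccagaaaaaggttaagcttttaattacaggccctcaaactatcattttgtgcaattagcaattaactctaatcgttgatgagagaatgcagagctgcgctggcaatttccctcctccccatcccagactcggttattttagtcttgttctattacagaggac
Plin2: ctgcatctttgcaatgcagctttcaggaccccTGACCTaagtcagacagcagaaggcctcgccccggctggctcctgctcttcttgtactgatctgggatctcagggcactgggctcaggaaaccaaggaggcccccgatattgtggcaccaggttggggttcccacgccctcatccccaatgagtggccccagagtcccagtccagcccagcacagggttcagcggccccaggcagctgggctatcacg
Fabp1: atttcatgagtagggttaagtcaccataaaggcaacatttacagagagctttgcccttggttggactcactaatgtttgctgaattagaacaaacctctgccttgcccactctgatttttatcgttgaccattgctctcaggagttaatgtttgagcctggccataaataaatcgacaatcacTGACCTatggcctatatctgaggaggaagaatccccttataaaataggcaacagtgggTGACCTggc
The hexamer was found in 4 of the 7 members, Cd36, Plin2, Plin5 and Fabp1, and in 4 of their 10 windows. Across the whole table, 15.8% of 27025 genes and 14.0% of 32851 windows held it. Fabp1 had 2 matches, at bases 67 to 62 and 9 to 4 before the start, and Cd36 had 1 at bases 228 to 223. The STAT motif was in none of the 7 members' windows and was in 7.02% of all windows. Genes with a match thus include one that was higher with both losses (Cd36), one that was lower (Fabp1) and one that was nearly level (Plin2).

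**Figure D1:**
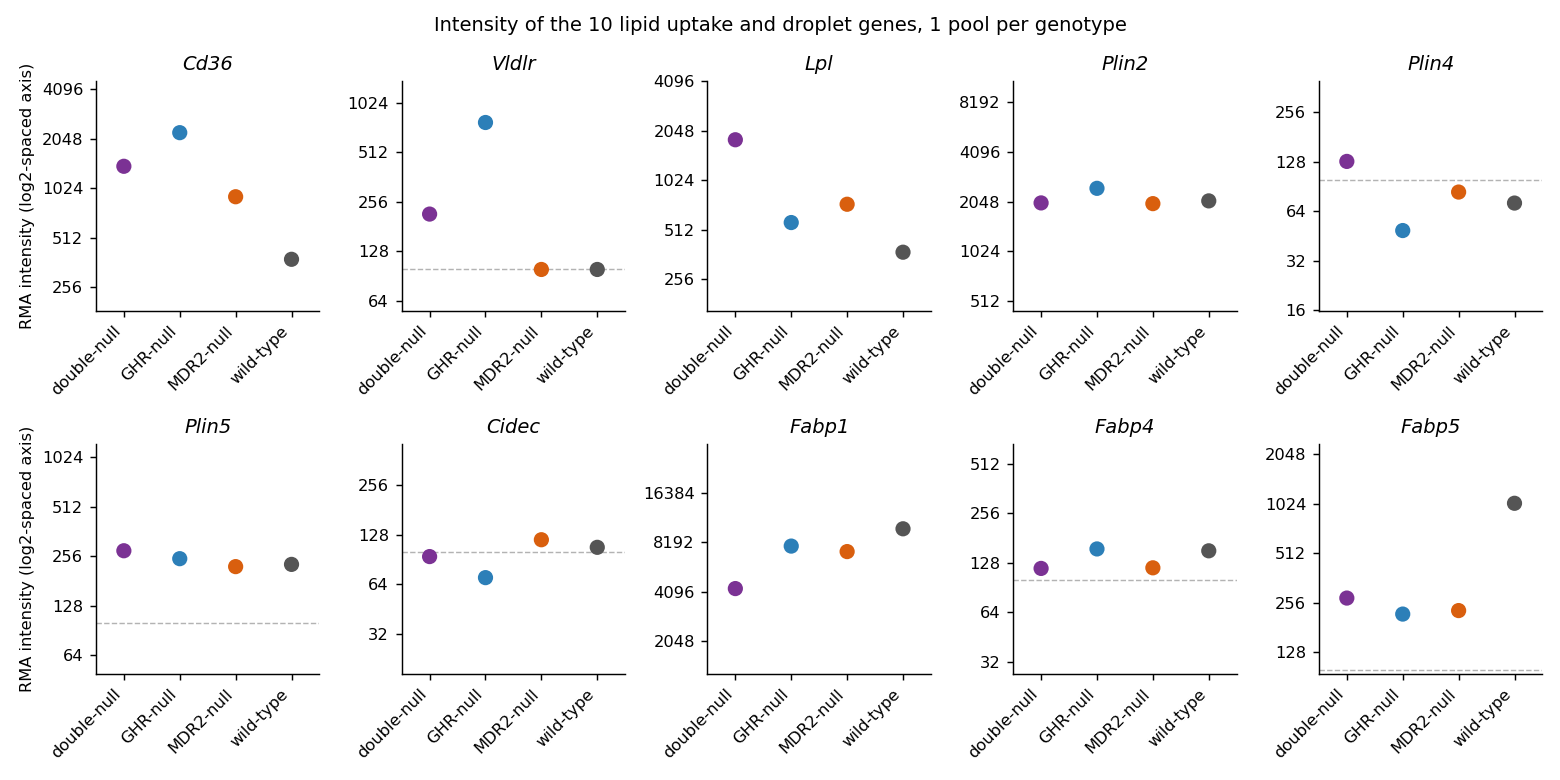
RMA intensity of each gene (y axis, spaced by log2, with the same span in every panel) in the double-null, GHR-null, MDR2-null and wild-type pools (x axis). Each point is 1 array of 3 pooled livers, and the dashed line, where in range, marks an intensity of 100. Cd36 and Vldlr are highest in the GHR-null pool, Lpl in the double-null pool and Fabp5 in the wild-type pool, while Plin2, Plin5 and Fabp4 are nearly level.

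Among the uptake genes, all 3 were higher in the double-null than in the wild-type pool, but Cd36 and Vldlr were highest in the GHR-null pool and Lpl in the double-null pool. Cd36, the fatty acid translocase, had intensities of 1394 in the double-null, 2232 in the GHR-null, 910 in the MDR2-null and 379 in the wild-type pool. Each loss alone went with a higher level, 5.89-fold for GHR and 2.40-fold for MDR2, and the double-null pool lay between the GHR-null and MDR2-null pools. GHR loss in the absence of MDR2, which does not involve the pool with Xist, went with 1.53-fold more Cd36. MDR2 loss in the absence of GHR went with 1.60-fold less, the opposite direction to MDR2 loss alone. In whole liver, here and below, a change in the number of cells of a type and in the RNA per cell cannot be told apart.

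Vldlr, which takes up triglyceride-rich lipoproteins and is known for higher levels in female mouse liver, was 215 in the double-null, 775 in the GHR-null, 99 in the MDR2-null and 99 in the wild-type pool. The MDR2-null and wild-type values were equal and just under the level of 100, so the folds against them are not exact. GHR loss went with 2.17-fold more Vldlr without MDR2 and 7.83-fold more with it, the larger fold resting on the pool with Xist. The double-null pool stood 3.60-fold below the GHR-null pool. The range of Vldlr over the 4 pools, 2.97 log2 units, was as wide as or wider than that of 99.0% of the 10764 genes that reached 100 in at least 1 pool, and the range of Cd36, 2.56 log2 units, exceeded or matched 98.5% of them.

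Lpl, the lipase that frees fatty acids from lipoproteins, followed another order. Its intensity was 1801 in the double-null, 565 in the GHR-null, 730 in the MDR2-null and 373 in the wild-type pool. The double-null pool was 4.83-fold above wild type and 2.47-fold above the MDR2-null pool. The single-loss pools differed from wild type by 1.51-fold (GHR) and 1.96-fold (MDR2). The GHR fold is at the edge of the 1.5-fold threshold used for calls. Lpl was higher with each loss in either background.

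The droplet coat genes differed less. Plin2, the perilipin that coats most hepatocyte droplets, was 2008 in the double-null, 2463 in the GHR-null, 1988 in the MDR2-null and 2066 in the wild-type pool, a range of 0.31 log2 units. Plin5, which ties droplets to mitochondria in tissues that burn fat, was 276, 247, 221 and 228 in the same order. Neither gene had a 1.5-fold difference in any of the 5 comparisons. The robust SD of non-additivity over all genes, scaled to a pairwise difference, was 0.23 (log2), or 1.17-fold. It is not the spread of genes within any 1 comparison.

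Plin4 and Cidec lay close to the level of 100, where differences are least secure. Plin4, a perilipin best known from fat cells, was 129 in the double-null pool, against 49, 84 and 72 in the GHR-null, MDR2-null and wild-type pools. It reached 100 in the double-null pool alone, and so entered only the comparisons that include that pool. Its folds there of 1.54 over MDR2-null, 2.63 over GHR-null and 1.79 over wild type have a denominator below the level. With values under 100 raised to 100, each of these differences shrank to 0.37 on the log2 scale, under 1.5-fold. Cidec, whose protein enlarges droplets by fusing them, was 94 in the double-null, 70 in the GHR-null, 119 in the MDR2-null and 107 in the wild-type pool. Its GHR-null against wild-type difference, 1.53-fold lower, shrank to -0.10 (log2) with the same change. The double-null against the MDR2-null difference of Cidec was -0.34 (log2), under 1.5-fold.

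The carriers split into one that was lower, one that was nearly level and one that stood out in the wild-type pool. Fabp1, the main fatty acid-binding protein of hepatocytes, was 4297 in the double-null, 7789 in the GHR-null, 7212 in the MDR2-null and 9923 in the wild-type pool. The single-loss pools were 1.27-fold (GHR) and 1.38-fold (MDR2) below wild type, under the threshold, and the double-null pool was 2.31-fold below it. The double-null pool was also 1.68-fold below the MDR2-null and 1.81-fold below the GHR-null pool. Summed hepatocyte markers differed less, at 0.90 of the wild-type value in the double-null pool, where Fabp1 stood at 0.43.

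Fabp4, the adipocyte and macrophage carrier also found in capillary endothelium, was 118 in the double-null, 155 in the GHR-null, 119 in the MDR2-null and 151 in the wild-type pool. The pools with MDR2 were slightly higher than those without it, by 1.31-fold or less. Fabp5, the epidermal-type carrier that is also present in macrophages, gave 274 in the double-null, 219 in the GHR-null and 230 in the MDR2-null pool, and 1033 in the wild-type pool. The 3 pools with a loss differed by at most 1.25-fold among themselves, and all stood at least 3.77-fold below wild type. Its other row gave 246, 201 and 214, against 933, so the 2 rows had the same pattern; whether they share probes is not given. All 3 comparisons with the wild-type pool use the same wild-type array, so the pattern of Fabp5 rests on 1 array.

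**Figure D2:**
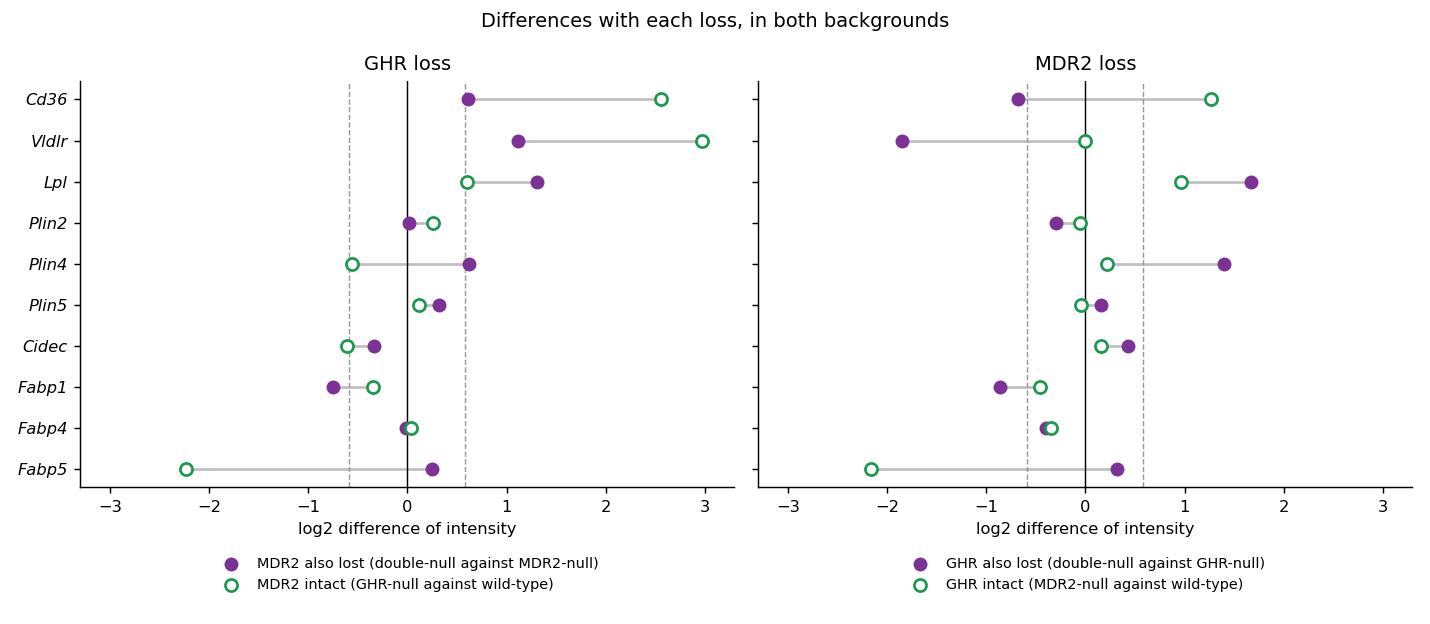
Log2 differences of intensity (x axis) for each gene (y axis) with loss of GHR (left) and loss of MDR2 (right). Filled points are the difference where the other gene was also lost, open points where it was intact, and dashed lines mark 1.5-fold. Lpl lies right of 0 in all 4 differences, Cd36 changes side with MDR2 loss, and the large negative values of Fabp5 are both differences from the wild-type array.

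Counts over the 10 genes were set beside those over all genes. The members were chosen with earlier results of these data known, so their shares are not those of an unselected group. A gene was compared where the higher of the pools was at 100 or more, and called at 1.5-fold. In the double-null against the MDR2-null pool, 4 of 10 compared members were higher (Cd36, Vldlr, Lpl and Plin4) and 1 was lower (Fabp1), where 7.15% of 10524 genes were higher and 3.89% lower. The median log2 difference was 0.29 over the members and 0.06 over all genes compared. Here and below, the members' medians are over all 10, including any not compared, while the all-gene medians cover compared genes only. With arrays centred on their medians, 2 were higher and 1 lower, because Cd36 and Plin4 lie just above the threshold. In the GHR-null against the wild-type pool, 3 of 9 were higher (Cd36, Vldlr and Lpl) and 2 lower (Cidec and Fabp5), with 4.25% and 2.48% over all genes and medians of 0.08 for the members and 0.10 for all genes. Centred on hepatocyte markers, 3 were higher and 1 lower. With cyclic loess or arrays centred on their medians, 2 were higher and 2 lower, since Lpl stood at 0.53 and 0.48 (log2) there, under 1.5-fold.

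With MDR2 loss, in the double-null against the GHR-null pool, 2 of 9 were higher (Lpl and Plin4) and 3 lower (Cd36, Vldlr and Fabp1), against 9.95% and 9.89% of all genes. With cyclic loess 2 were higher and 2 lower, since Cd36 stood at -0.58 (log2), just under 1.5-fold. Comparing MDR2-null with wild-type livers, 2 of 8 were higher (Cd36 and Lpl) and 1 lower (Fabp5), against 6.09% and 3.57% of all genes. The medians over all 10 members in these comparisons were -0.07 and -0.02, beside -0.06 and -0.04 over all genes compared. The gene sets are unlike, since the members' medians include genes under the level, so their closeness is not a result. In the double-null against the wild-type pool, 4 of 10 were higher (Cd36, Vldlr, Lpl and Plin4) and 2 lower (Fabp1 and Fabp5), against 13.7% and 7.59% of all genes. These comparisons share arrays, so the counts are not independent of each other.

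The difference of the differences, that is, the log2 change with GHR loss without MDR2 minus that with MDR2, shows where the losses did not simply add. Over 10764 genes its robust SD was 0.32, and 9.57% of genes lay more than 2 robust SDs (0.65) from 0. Among the members, which were chosen with earlier results of these data known, 5 of 10 did. Fabp5 stood at 2.49, Plin4 at 1.17 and Lpl at 0.70, all above additivity, while Cd36 at -1.94 and Vldlr at -1.85 lay below it. The values for Cd36 and Vldlr include the pool with Xist, and that of Fabp5 the wild-type array in which it was high, and the part of these in the values was not tested. The value of Plin4 rests on 3 intensities under 100: with low values raised to 100 it was 0.37, within 2 robust SDs of 0, and 4 members lay farther out. Lpl lay close to the limit.

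**Figure D3:**
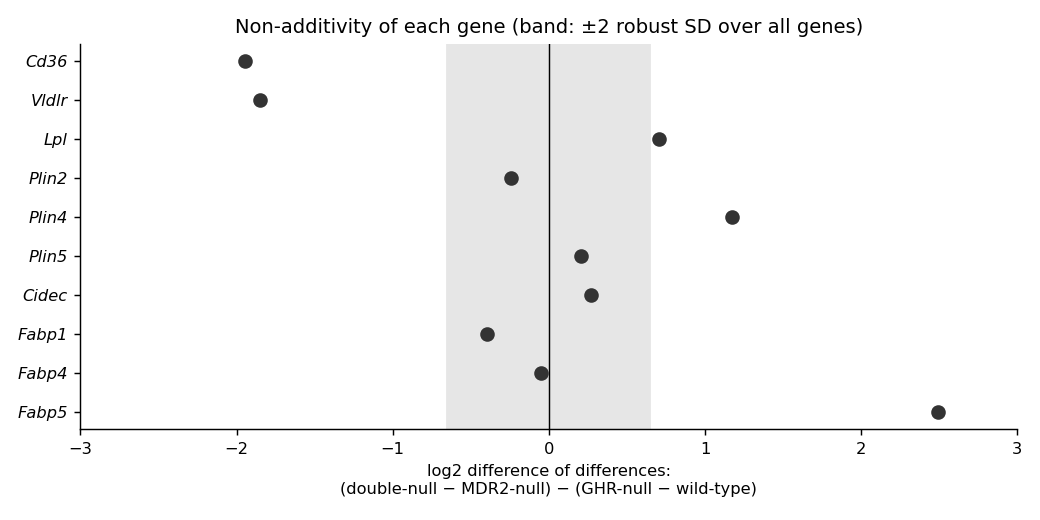
Difference of the differences for each gene on the log2 scale (x axis), computed from all 4 pools. The grey band spans 2 robust SDs of the same quantity over 10764 genes to either side of 0. Cd36 and Vldlr lie left of the band, Lpl, Plin4 and Fabp5 right of it.

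The only test the layout allows is of the average effect of each loss, with limma, under the assumption that the losses add. Of the 10 members the test called Lpl only for MDR2 loss. Lpl rose by an average of 1.32 ± 0.20 (log2, SE; limma, adjusted p = 0.0409) and was higher in both MDR2 comparisons. Over all genes, 2.99% of 10764 rose and 0.762% fell. The Lpl call was lost with no level filter (limma, adjusted p = 0.327), with the filter at the 75th percentile (0.0659) and with low values raised to 100 (0.158), although its effect was 1.32 in each. On simulated data, with no departure from additivity beyond noise, the test recovered 37% of 2-fold changes with GHR loss, so changes of that size can go uncalled. For GHR loss limma called none of the members (0.204% of all genes rose and 0.316% fell). The unadjusted limma p was under 0.05 for 5 members, and for 1405 of all 10764 genes. The 5 members were Vldlr at 2.04 ± 0.42, Cd36 at 1.59 ± 0.44 and Lpl at 0.95 ± 0.20 (log2, SE), on the higher side, and Fabp1 at -0.55 ± 0.16 and Cidec at -0.48 ± 0.15 on the lower side, with adjusted p between 0.183 and 0.301. A gene whose losses do not add enlarges its own error in this test, as with Cd36, Vldlr and Fabp5, and the test cannot be run without the pool with Xist.

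Several members are also made by cells other than hepatocytes, so marker sums were taken over fixed lists. Macrophages express Lpl, Cd36, Fabp4 and Fabp5. Summed intensity of 15 Kupffer cell and macrophage markers was 11893 in the double-null, 5729 in the GHR-null, 8877 in the MDR2-null and 4143 in the wild-type pool, the same ordering of genotypes as Lpl. In the double-null against the MDR2-null pool 6 of 14 compared markers were called higher and none lower, where 7.15% and 3.89% of all genes were. Between MDR2-null and wild-type livers 7 of 10 compared were called higher and none lower, against 6.09% and 3.57% of all genes. Lyz2 was the largest part of the sum in the double-null pool, at 5243, and in the MDR2-null pool, at 2879. Not all markers followed the sum. From MDR2-null to double-null livers Clec4f, Cd5l, Timd4 and Vsig4 fell, by log2 differences of -0.49, -0.37, -0.32 and -0.15. The sum of 8 cholangiocyte markers also followed the ordering of Lpl, at 2302, 655, 998 and 548. Its higher value in the GHR-null than in the wild-type pool rests on Krt23, at 222 and 38. Krt7, Epcam, Sox9, Cftr and Tspan8 were lower in the GHR-null than in the wild-type pool, and Krt19 and Cldn7 slightly higher. The sum of 10 stellate cell and myofibroblast markers had the ordering of Lpl as well, at 10654, 7284, 8198 and 5927. Dcn, at 6466, 4295, 4928 and 3591, made up most of the latter sum. Of these 10, 2 were called higher and 1 lower (Lrat, at 393 and 608) in the double-null against the MDR2-null pool, where 7.15% and 3.89% of all genes were. In the double-null pool Lpl stood at 4.83 times its wild-type intensity, the cholangiocyte sum at 4.20 times and the macrophage sum at 2.87 times. The part of these cells in the Lpl difference was not tested.

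Fabp4 and Fabp5 did not follow the ordering of the macrophage sum: the double-null values of 118 and 274 stood under the wild-type values of 151 and 1033. Of 8 measured adipocyte markers, 6 were under 100 in every pool, including Adipoq at 17 to 20 and Lep at 25 to 27, and their sum was 579, 561, 490 and 516 in the order above. The exceptions were Lipe, which hepatocytes also express, and Slc2a4, the insulin-responsive glucose transporter, at 241 in the double-null pool and 106, 92 and 96 in the others. Summed endothelial markers, 10 in number, were 4876, 6170, 5347 and 4984. Of 8 muscle markers, 4 were under 100 in every pool, and their sum was 492 in the double-null, 409 in the GHR-null and 522 in the MDR2-null pool, below 681 in the wild-type pool. Fabp5 was likewise highest in the wild-type pool, and the part of muscle RNA in that value was not tested.

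**Figure D4:**
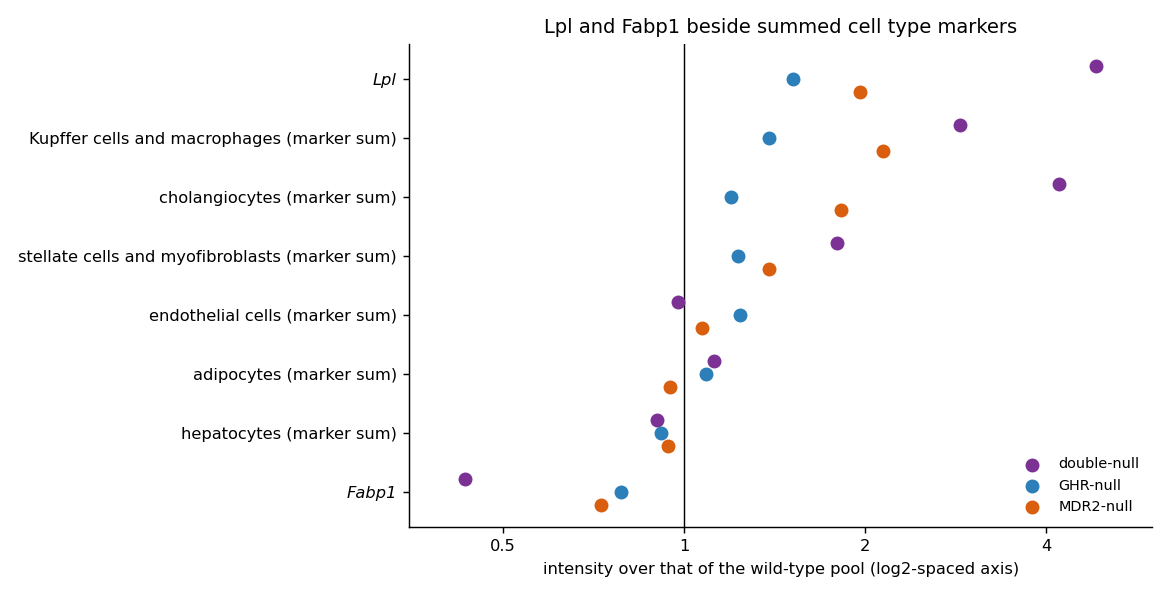
Intensity in the double-null, GHR-null and MDR2-null pools over that in the wild-type pool (x axis, spaced by log2) for Lpl, for summed markers of 6 cell types and for Fabp1 (y axis). Each point is 1 pool, and the vertical line marks the wild-type value. Lpl and the summed macrophage, cholangiocyte and stellate cell markers share 1 ordering of the pools, while the hepatocyte sum stays between 0.90 and 0.94. The place of the cholangiocyte sum in the GHR-null pool above wild type rests on Krt23.

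Neighbouring genes of lipid handling were taken from 7 lists, chosen, like the members, with earlier results of these data known. List medians are over all measured genes, including those not compared, while all-gene medians cover compared genes only. Of 11 other fatty acid transporters and lipoprotein receptors measured, 9 were compared, and none was called in 4 of the 5 comparisons. In the double-null against the GHR-null pool only Slc27a5, a liver fatty acid transporter and bile acid-activating enzyme, was called. It was 2801 in the double-null and 4570 in the GHR-null pool, with 2937 in the MDR2-null and 3808 in the wild-type pool. Over all genes, 2.48% to 13.7% were called per direction and comparison, so few calls among 9 genes are not a result about the list. Lsr (MDR2-null against wild-type) and Slc27a1 (double-null against wild-type) reached 1.45-fold, just under the threshold. The list's median between double-null and MDR2-null livers was 0.03 (log2), beside 0.06 for all genes. In the lipoprotein lipase system, with 10 genes measured and compared, 1 was higher and 2 were lower in double-null than in MDR2-null livers. Over all genes, 7.15% were higher and 3.89% lower there. The list's median was -0.17. Angptl8, an insulin-induced inhibitor of the lipase, was 1287 in the double-null, 1736 in the GHR-null, 631 in the MDR2-null and 966 in the wild-type pool, and thus higher with GHR loss in both backgrounds. Lmf1, which lipase maturation requires, was 786 in the double-null pool and 1237, 1242 and 1243 in the others, lowest where Lpl was highest. Gpihbp1, which anchors the lipase to capillaries, was 179, 248, 187 and 215.

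Of 16 other droplet proteins measured, 13 were compared. In the double-null against the MDR2-null pool 1 was higher and none lower, with a median of -0.09, where 7.15% and 3.89% of all genes were. The 1 gene was Acsl4, an acyl-CoA synthetase, at 2273 in the double-null pool and 936, 1209 and 967 in the others. None was called between either single-loss pool and wild type. The all-gene shares there were 4.25% higher and 2.48% lower (GHR-null), and 6.09% and 3.57% (MDR2-null). Hsd17b13, a droplet enzyme of hepatocytes, was 6235 in the double-null, 4204 in the GHR-null, 4963 in the MDR2-null and 3962 in the wild-type pool. Of 10 genes of lipolysis, 6 were lower in the double-null against the GHR-null pool and none was higher, where 9.89% of all genes were lower, with a median of -0.61 (log2) against -0.06 for all genes. That comparison rests on the pool with Xist. Without it, the double-null against the MDR2-null pool had 1 higher and 2 lower and a median of 0.02, where 7.15% and 3.89% of all genes were. The double-null against the wild-type pool had 3 lower, none higher and a median of -0.14, where 7.59% of all genes were lower and 13.7% higher. Mgll, which cleaves monoglycerides, was 243 in the double-null pool and 986, 573 and 785 in the GHR-null, MDR2-null and wild-type pools. Ces3a, a liver carboxylesterase, was 787, 2054, 6343 and 7054 in that order, lower with GHR loss in both backgrounds, and Ces1d was 2534, 6202, 2767 and 5080, lower with MDR2 loss in both.

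In triglyceride synthesis, 12 genes were measured and 9 compared. None was called in the double-null against the MDR2-null pool, with a median of -0.13, where 7.15% of all genes were higher and 3.89% lower. Between MDR2-null and wild-type livers 3 were lower and none higher, where 3.57% and 6.09% of all genes were. Among the 3 was Gpam, the first acyltransferase of the pathway, at 1533 in MDR2-null and 2573 in wild-type livers. Lpin1, a phosphatidate phosphatase, was 558 in MDR2-null and 867 in wild-type livers. Dgat2, which makes the final step, was 3443 in the double-null, 5522 in the GHR-null, 4340 in the MDR2-null and 4253 in the wild-type pool.

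Of the other carriers, 11 genes were measured and 8 compared between double-null and MDR2-null livers. There 1 was higher and 2 were lower, with a median of -0.19, where 7.15% and 3.89% of all genes were. Fabp2, the intestinal-type fatty acid-binding protein, was 92 in the double-null, 871 in the GHR-null, 530 in the MDR2-null and 1251 in the wild-type pool, with the double-null pool lowest, as for Fabp1. The double-null value is under 100, so the range of 3.77 log2 units is not exact. Scp2, a sterol carrier of peroxisomes, was 1960 and 1884 in the double-null and GHR-null pools, below the 5112 and 5793 of the MDR2-null and wild-type pools, so GHR loss went with 2.61-fold and 3.07-fold less. Pctp, which transfers phosphatidylcholine, was 992, 2070, 582 and 694, with GHR loss 1.70-fold higher without MDR2 and 2.98-fold higher with it.

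**Figure D5:**
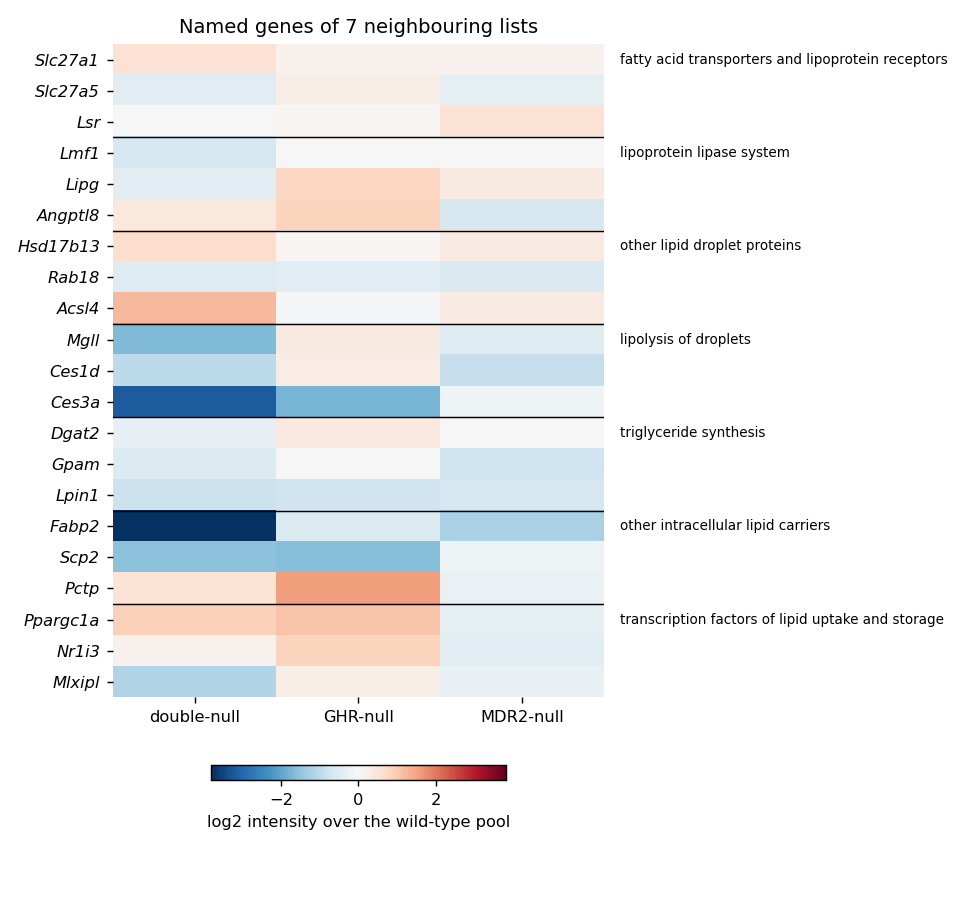
Log2 intensity of 21 named genes of the 7 neighbouring lists (rows) in the double-null, GHR-null and MDR2-null pools over the wild-type pool (columns; red is higher, blue is lower). Fabp2, Ces3a and Mgll in the double-null pool are the darkest blue cells of that column, and Pctp in the GHR-null pool is the darkest red of the panel.

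Genes with the most similar profile over the 4 pools were sought for the members with a range of at least 1.5 log2 units, by the root mean square distance of centred log2 values among 1368 genes with a range of at least 1. With 4 pools many genes can lie close, and several of the profiles named rest on intensities under 100, so the distances are inexact and serve as descriptions. Nearest to Cd36 were Atp6v0d2 (distance 0.21 log2 units), Slc16a5 and Vnn1, and nearest to Vldlr were Slc22a29 (0.22), Pcp4l1 and Nt5e. Itgb8 (0.03), Zc2hc1a and Frzb lay nearest to Lpl. Itgb8 was 205 in the double-null, 62 in the GHR-null, 80 in the MDR2-null and 40 in the wild-type pool. Nearest to Fabp5 was Gm4956 (0.27), with 21, 19 and 23 in the double-null, GHR-null and MDR2-null pools, against 131 in the wild-type pool.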

How the data were processed

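Liver RNA of 4 genotypes was measured on 4 arrays, 1 per genotype, each a pool of 3 livers per the series design. The deposited intensity values came from RMA (background correction, quantile normalization, probe summary) in Affymetrix Expression Console 1.1, per the submitters' processing notes. They are whole numbers from 6 to 22355 on a linear scale and were turned into log2. The authors' normalization was kept. Rounding makes differences between low values coarse, and 4 arrays give little precision.

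Of 35556 rows, 21789 had exactly 1 symbol in GEO's platform annotation, 1621 several and 12146 none; 21698 of the first matched the RefSeq table of GRCm38.p6 by gene identifier, and no symbol differed. A gene took its row with the highest mean. Differences were log2 of 2 single arrays, called at 1.5-fold where the higher array reached 100, the median intensity. The average effect of each loss was tested with limma 3.58.1 (lmFit and eBayes, additive GHR and MDR2 terms, 1 residual and 4.34 prior degrees of freedom, Benjamini-Hochberg over 10764 genes at 0.05) and checked on simulated data. In that check, with 200 of 10764 genes changed with GHR loss, 37% of 2-fold and 99% of 4-fold changes were recovered, with 9 false calls. The simulated data held no MDR2 effect and no non-additivity beyond noise, and the noise had the form that limma assumes. Recovery and false calls for genes whose losses do not add were not checked. Since pools are single, the error in limma measures only departure from additivity.

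Members and lists were chosen with earlier results of these data known. Besides the members, the text names the targeted genes, up to 3 genes with the widest range in each of 7 lists and up to 2 in each marker list. Gpihbp1, Adipoq and Lep were added after their values were seen. Further marker genes were named outside this rule, to show what a sum rests on or which markers differ from it. Among them are Lyz2, Clec4f, Cd5l, Timd4, Vsig4, Dcn and Lrat. Alternatives changed the level filter, the fold threshold, the scaling between arrays, the row of a gene, low values and limma's moderation.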

Additional observations from a re-analysis of the deposited data

Results flagged for a closer look

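Cd36 moved in opposite directions with MDR2 loss in the 2 GHR backgrounds, each time by at least 1.5-fold: its log2 difference was -0.68 in the double-null against the GHR-null pool and 1.26 between the MDR2-null and wild-type pools. With cyclic loess the first was -0.58, just under 1.5-fold, so that call was lost. Lipg, endothelial lipase, did so with GHR loss, with -0.76 in the double-null against the MDR2-null pool and 0.79 in the GHR-null against the wild-type pool. Its intensities were 113 in the double-null, 262 in the GHR-null, 191 in the MDR2-null and 152 in the wild-type pool. With 1 array per genotype neither opposition was tested, and both involve the GHR-null pool in which Xist was at 1400.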

How the results depend on the processing

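No called difference of a member turned its direction under any alternative run. In the double-null against the MDR2-null pool, 5 members were called, against 3 with the level filter at the 75th percentile (intensity 329), 3 with arrays centred on their medians and 2 at 2-fold. At 2-fold, the 5 calls in the GHR-null against the wild-type pool became 3, and so did the 5 in the double-null against the GHR-null pool. The single call of MDR2 loss by limma became 0 with no level filter, with the filter at the 75th percentile and with low values raised to 100; why was not tested. Of the values of single members, 441 kept their size or side of the threshold 8 moved, all of Plin4 or Cidec with low values raised to 100, and 3, the Lpl effects just named, lost their call. In log2 units, the all-gene median moved by -0.12 between GHR-null and wild-type livers with median centring. With hepatocyte centring it moved by 0.10 between double-null and MDR2-null, by 0.16 between GHR-null and wild-type and by 0.19 between double-null and wild-type livers. The share of all 1.5-fold calls that were higher in the GHR-null against the wild-type pool was 41.5% with median centring, 51.4% with cyclic loess and 85.7% with hepatocyte centring, so calls near 1.5-fold depend on the scaling. No paired analysis was possible because each genotype has 1 array. Signals near 100 cannot be told from background without detection calls, which limits Plin4, Cidec and, in the MDR2-null and wild-type pools, Vldlr.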

Other observations

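Transcription factors known to act on these genes differed among the pools. Pparg, which raises Cd36, Plin4 and Cidec where it is expressed, was 930 in double-null and 822 in GHR-null livers, compared with 491 in MDR2-null and 406 in wild-type livers, higher with GHR loss in both backgrounds. Ppargc1a, a coactivator of oxidative genes, was 542 and 606 in the double-null and GHR-null pools and 228 and 287 in the MDR2-null and wild-type pools. Ppara was 1117, 1397, 1142 and 1285 in the double-null, GHR-null, MDR2-null and wild-type pools. Mlxipl, the carbohydrate-responsive factor ChREBP, was 608 in the double-null pool, against 1587, 1117 and 1345 in the GHR-null, MDR2-null and wild-type pools. Of 14 such factors measured, 3 were at least 1.5-fold higher and 1 lower in the double-null against the MDR2-null pool, where 7.15% and 3.89% of all genes were. In the GHR-null against the wild-type pool 4 were higher and 1 lower, where 4.25% and 2.48% of all genes were. With MDR2 loss, in the double-null against the GHR-null pool, none was higher and 5 were lower, where 9.95% and 9.89% of all genes were. Between MDR2-null and wild-type livers none was higher and 1 lower, where 6.09% and 3.57% of all genes were. In the double-null against the wild-type pool 2 were higher (Pparg and Ppargc1a) and 3 lower, where 13.7% and 7.59% of all genes were. Pparg and Ppara were named after their values were seen.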
